A study of Mus musculus with 6 samples.

Results

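The genes described here are 47 mouse detoxification enzymes, most of which conjugate drugs and metabolites, picked by gene symbol from the 47643 rows of an RNA sequencing table of liver tumors. They comprise 5 UGT1, 8 UGT2 and 2 UGT3 glycosyltransferases, 20 glutathione S-transferases, 6 sulfotransferases, and a last set of 6 made of Ephx1, Aox1, Aox3, Fmo1, Fmo5 and Tpmt. All tumors came from LAP-tTA-tetO-MYC mice on the FVB/N strain, in which a liver-selective promoter drives the tetracycline transactivator, so MYC comes on in hepatocytes once doxycycline is taken away. Every mouse drank doxycycline at 100 mg/L up to 4 weeks of age and then had MYC on for 8 weeks. The vehicle group (3 libraries) next received vehicle, and the GSK3326595 group (3 libraries) received GSK3326595, which blocks PRMT5, an enzyme that methylates arginines in proteins. The dose was 50 mg/kg/day, and treatment lasted 2 weeks. The MYC transgene was thus on in both groups, and tumors without MYC were not analysed here. The labels give replicate numbers but no animal for each library, so the p-values below describe the spread among these samples, which may be technical in part.

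As background, detoxification in liver runs in steps. Oxidizing and hydrolysing enzymes such as flavin monooxygenases, aldehyde oxidases and epoxide hydrolase expose or open a reactive group. UDP-glucuronosyltransferases (UGTs) then attach a sugar acid, glutathione S-transferases (GSTs) attach glutathione, sulfotransferases (SULTs) attach sulfate, and transporters carry the soluble product into bile or blood. In healthy liver most of these enzymes are hepatocyte genes under HNF1 and HNF4 factors, many respond to the receptors AhR, CAR and PXR or to NRF2, and several differ between lobule zones and between the sexes.

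The libraries held 25814339 to 33621083 expected counts. GSK3326595 replicate 2 stood apart from the other 5 on the first principal component (38.1% of variance; 103.1 against -50.2 to 9.37), so the counts and many single values are given with and without it. Alb, a defining hepatocyte marker, was at 3157 to 11944 CPM (expected counts scaled to library size with TMM) in every library. Summed over the 11 hepatocyte markers found in the table, the level was 18511 to 39781 CPM in vehicle and 10179 to 32797 CPM in GSK3326595. Of 8 T and NK cell markers tested, 6 had higher values in GSK3326595 at an edgeR unadjusted p under 0.05, with sums of 5.22 to 9.69 CPM in vehicle and 12.2 to 27.8 CPM in GSK3326595. Of 8 stellate cell markers tested 2 did (133 to 529 against 586 to 786 CPM). Among all 17012 genes tested, 5.45% had higher values at such a p. Endothelial markers summed to 79.2 to 139 CPM against 99.2 to 194 CPM, and 0 of 6 had such a p in either direction. The Y-linked gene Ddx3y was at 80.9 to 121 CPM in every library, while Xist, of X inactivation, was at 16.98 to 27.4 CPM in vehicle and 0.433 to 3.26 CPM in GSK3326595. The part of these markers in the results below was not tested. In bulk tissue, fewer cells of a type and less RNA per cell cannot be told apart.

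Across the enzymes, the 2 GST theta genes Gstt1 and Gstt2 were the only members with lower values in all 3 GSK3326595 libraries than in any vehicle library, and Ugt3a1 and Ephx1 the only tested ones with higher values in all 3. Most UGT2 and UGT3 genes, Sult1c2, Sult2a8, Aox1 and Aox3 were many times higher in GSK3326595 replicate 2 alone. Gstm1, Gsta4, Fmo5 and Ugt1a1 had lower values in the other 2 GSK3326595 libraries than in any vehicle library. So did further members, among them Gsta3, Gstk1, Gsto1, Gstm7 and Gstt3. The share of all genes with this order was not read.

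Of the 47 members 45 passed the filter on low counts. At an edgeR unadjusted p under 0.05, 6 members had higher values in GSK3326595 (Ugt1a5, Ugt2b5, Ugt3a1, Sult1c2, Ephx1 and Aox3), where 5.45% of all 17012 genes tested did. In the same fit 2 had lower values (Gstt1 and Gstt2), against 3.81% of all genes, close to the 4.44% of members. After Benjamini-Hochberg adjustment over all genes edgeR called 0 members, as it called 0.0% of all genes, and limma-voom called 0 genes in either direction. DESeq2 called 2 of 43 members given an adjusted p (Ugt3a1 and Gstt1), against 1.8% of all genes. Groups did not overlap upward for 2 members and downward for 2, where 6.72% and 7.66% of all genes did so. Those shares of members, 4.44% each, are below the share of all genes.

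The number of members with higher values depended on single libraries. It was 6 with all libraries. Leaving out vehicle replicate 1, 2 or 3 gave 0, 1 or 9. Leaving out GSK3326595 replicate 1, 2 or 3 gave 13, 1 or 15. The share of all genes was read only with all libraries and without GSK3326595 replicate 2. The counts from the other fits stand without that background. The number with lower values was 2 with all libraries, 1 when either vehicle replicate 1 or vehicle replicate 2 was left out, and 12 with GSK3326595 replicate 2 left out. Of the 8 members with an edgeR unadjusted p under 0.05, only Gstt1 kept one in each of the 6 fits that left out 1 library, at most 0.0139. The highest such p was 0.0714 for Ephx1 and 0.0731 for Gstt2 (without a vehicle library), and 0.118 for Ugt1a5 (without vehicle replicate 2), and, without GSK3326595 replicate 2, 0.122 for Ugt3a1, 0.388 for Aox3, 0.398 for Ugt2b5 and 0.829 for Sult1c2. With GSK3326595 replicate 2 left out, Ephx1 alone was higher, where 5.59% of all genes were, and the 12 lower members (26.7%) stand beside 4.46% of all genes. That fit called 0.0% of all genes after adjustment. DESeq2 without the same library called 4 members, all lower (Ugt1a1, Gsta4, Gstm1 and Fmo5). It called 1.9% of all genes counted in either direction, 138 higher and 207 lower. The median log2 difference of the 45 members was 0.74 with all libraries (0.03 over all genes), and -0.16 without GSK3326595 replicate 2 (0.06 over all genes).

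GSK3326595 replicate 2 was the highest library for 31 of 45 members (68.9%), where it was highest for 22.0% of all genes tested. It exceeded the highest of the other 5 libraries by more than 5-fold for 13 members (28.9%), as against 1.30% of all genes. Vehicle replicate 3 was neither highest nor lowest for any tested member, where it was highest for 9.27% and lowest for 8.36% of all genes. GSK3326595 replicate 3 was the lowest library for 17 members (37.8%) and GSK3326595 replicate 1 for 12 (26.7%), each against 20.5% of all genes. Summed over all 47 members the level was 2535, 2516 and 2120 CPM in vehicle replicates 1, 2 and 3, and 1999, 5349 and 1440 CPM in the GSK3326595 replicates.

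**Figure D1:**
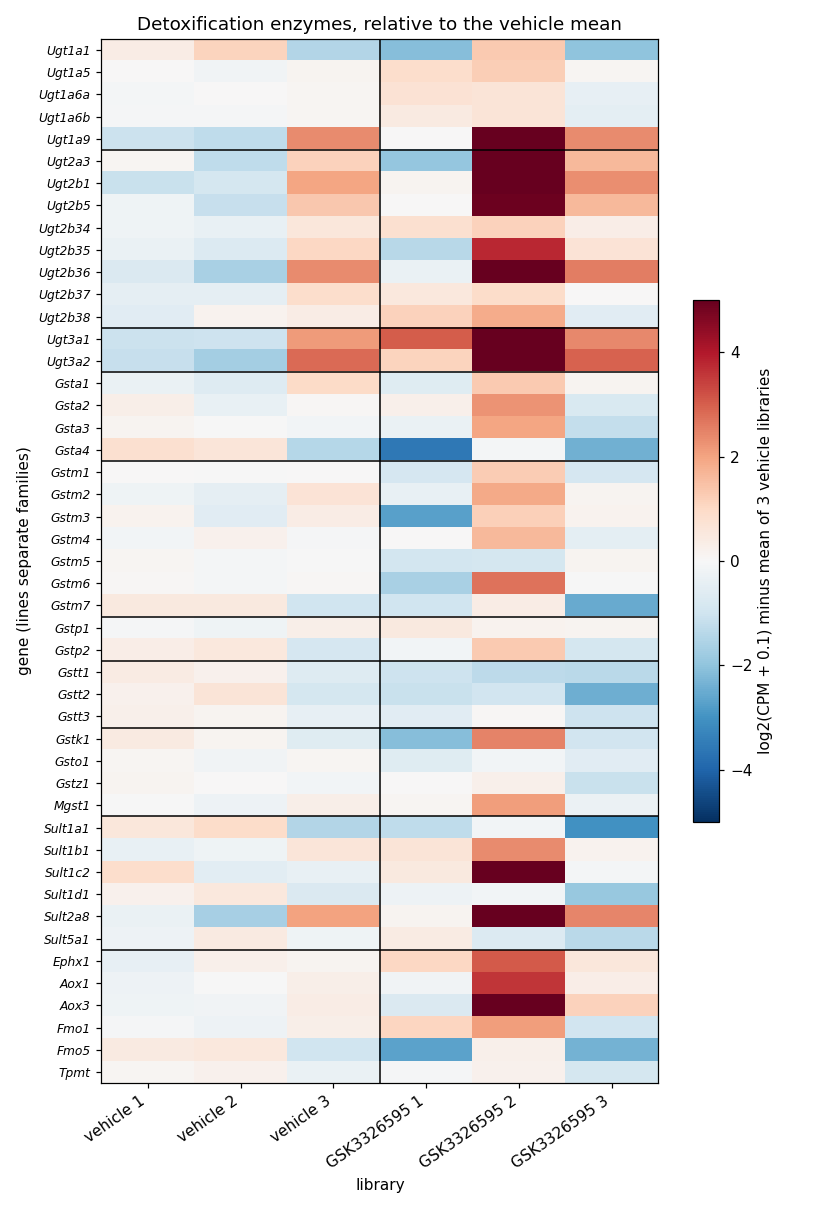
Each row is a gene and each column a library; color is log2(CPM + 0.1) minus the mean of the 3 vehicle libraries, with values past 5 drawn at the end of the scale, and lines separate families and groups. The dark red cells lie in the column of GSK3326595 replicate 2, mainly in the UGT2 and UGT3 rows, while Gstt1 and Gstt2 are blue in all 3 GSK3326595 columns.

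Levels between genes are compared per kb of exon. The most abundant member was Gstp1, a pi-class GST, with a mean of 218 CPM per kb over the 6 libraries. Next by this mean came Mgst1, a membrane-bound GST, at 144, Gstm1 at 111, Gstt1 at 80.7, Sult1a1 at 60.4 and Fmo5 at 45.6 CPM per kb. Gstp1 also varied least among these, from 264 to 422 CPM, and its place above Mgst1 does not hold in GSK3326595 replicate 2, where Mgst1 was at 403 and Gstp1 at 224 CPM per kb. In vehicle replicates 1 and 2 Mgst1 was at 93.3 and 77.6 CPM per kb, below Gstt1 at 146 and 128 and Sult1a1 at 103 and 133. Ugt2b34 had the highest mean of the UGTs at 40.7 CPM per kb, but in GSK3326595 replicate 2 Ugt2b5 (106) and Ugt2b36 (76.4) were above it (64.4). At the other end, Ugt2b37 and Ugt2b38 had a mean of 0.0385 and 0.072 CPM per kb. Both were under the filter: Ugt2b37 had 0 counts in vehicle replicates 1 and 2, which allows up to 0.0955 and 0.102 CPM (3 counts, counting error only), and neither passed 0.434 CPM in any library.

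**Figure D2:**
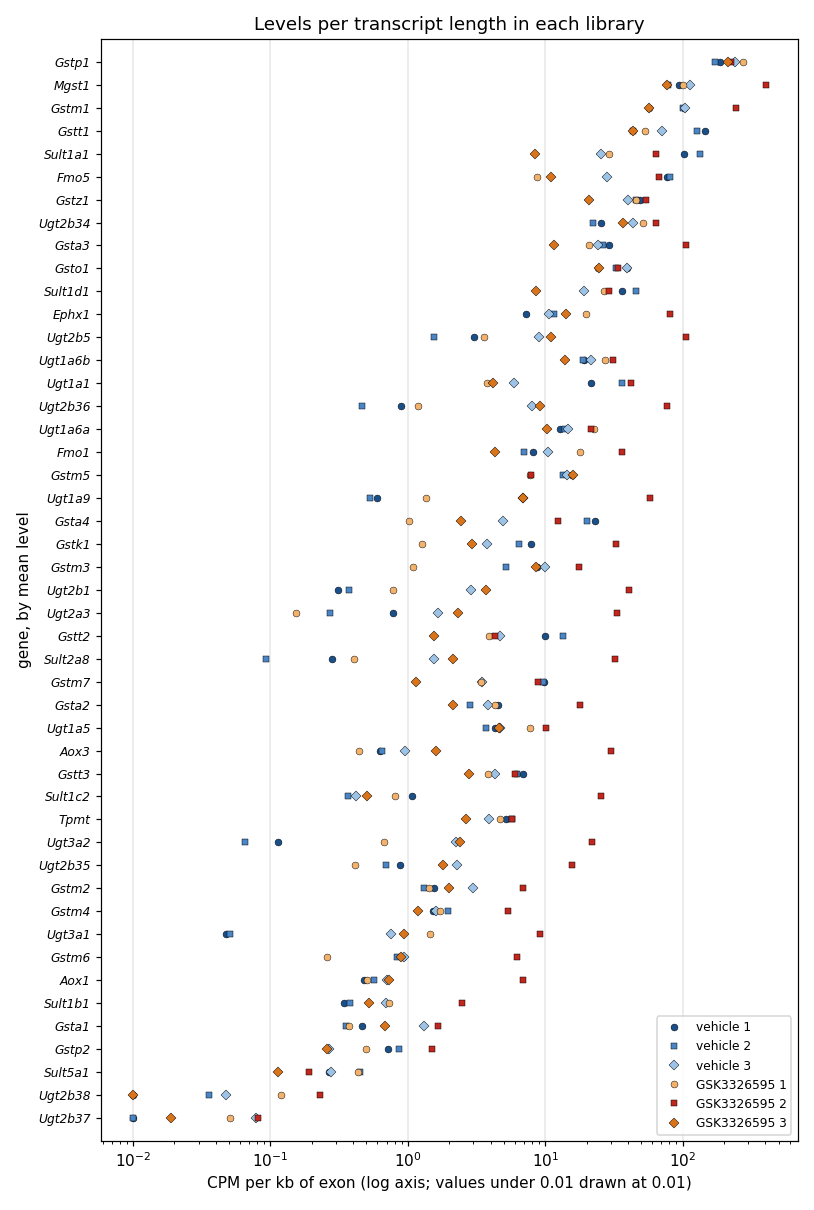
Points give CPM per kb of exon in each of the 6 libraries on a log axis, with genes ordered by their mean. The points of Gstp1, Gstz1 and Gsto1 lie close together, while those of the UGT3 genes and of Sult2a8 span more than the distance between most genes.

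The UGT1 genes form 1 locus on chromosome 1 (mm10, plus strand) in which each gene has its own first exon and start and all share the downstream exons, ending near 88218997. Ugt1a9 starts at 88070800, Ugt1a6b at 88103252, Ugt1a6a at 88134809, Ugt1a5 at 88166012 and Ugt1a1 at 88211959. Of the 50-base stretches of these transcripts, 52.1% to 79.8% also occur in another gene. The share is largest for Ugt1a6b, with 79.6% found in Ugt1a6a. Because of this sharing, and of the antisense gene Gm20528 that overlaps them, the split of reads among these genes is uncertain. The bases before each start also differ between these genes. The last 100 before 4 of the starts are shown, with 1 more from the UGT2 cluster (RefSeq, GRCm38.p6). Capitals mark a searched motif. For all but Ugt1a5 it is GTTAAT, an HNF1 half-site. Ugt2a3 shows it as GTTAAT, and Ugt1a1, Ugt1a6a and Ugt1a9 show its opposite-strand reading, ATTAAC. In Ugt1a5 the motif is GCGTG, the core bound by AhR.
Ugt1a1 (chr1:88211859-88211958, plus strand): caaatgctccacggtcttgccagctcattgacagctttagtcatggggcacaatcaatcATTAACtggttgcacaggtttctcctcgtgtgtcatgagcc
Ugt1a5 (chr1:88165912-88166011, plus strand): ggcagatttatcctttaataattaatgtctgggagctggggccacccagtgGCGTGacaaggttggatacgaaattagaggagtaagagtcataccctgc
Ugt1a6a (chr1:88134709-88134808, plus strand): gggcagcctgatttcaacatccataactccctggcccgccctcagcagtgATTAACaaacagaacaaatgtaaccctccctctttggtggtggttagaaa
Ugt1a9 (chr1:88070679-88070778, plus strand): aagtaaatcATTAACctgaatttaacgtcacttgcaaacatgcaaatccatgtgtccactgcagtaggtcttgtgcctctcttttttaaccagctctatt
Ugt2a3 (chr5:87337196-87337295, minus strand): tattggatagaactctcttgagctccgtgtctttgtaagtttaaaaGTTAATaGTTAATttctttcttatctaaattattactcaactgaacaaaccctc

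Counted from the RefSeq start, just past each window, the motif begins 41 bases before Ugt1a1, 50 before Ugt1a6a, 91 before Ugt1a9, whose RefSeq start differs from the annotated gene start given above, and 54 and 47 before Ugt2a3. In the 250 bases before the start, on both strands, GTTAAT occurs in 8 of the 42 members with a window, and in 6.43% of 32851 windows of all genes. The other members with it are Gsta3, Sult1a1, Sult1d1 and Ugt3a1. GCGTG occurs in 10 of 42 members and 28.2% of all windows, and TGACNNNGC, the core of the NRF2 antioxidant element, in 4 of 42 (Gsta3, Gstm5, Gstm7 and Mgst1) and 10.2% of all windows. A match describes the letters in these windows only. Ugt1a1 and Ugt1a9 both hold the half-site and differed in their order of libraries, as their values next show. The part of the half-site in those values was not tested.

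Within the UGT1 locus the genes went different ways. Ugt1a1, the enzyme that conjugates bilirubin, was at 48.1, 80.1 and 13.2 CPM in vehicle and at 8.41, 93.4 and 9.20 CPM in GSK3326595. Vehicle replicate 3 thus lay near GSK3326595 replicates 1 and 3, and GSK3326595 replicate 2 near the other vehicle libraries. The log2 difference was -0.35 ± 1.06 (SE, edgeR adjusted p = 0.957). Without GSK3326595 replicate 2 it was -2.37 ± 0.75 (edgeR unadjusted p = 0.0199, edgeR adjusted p = 0.459, DESeq2 adjusted p = 0.0179). Ugt1a9, which conjugates phenols, ran otherwise, with 1.31, 1.16 and 15.1 CPM in vehicle and 2.97, 127 and 15.2 CPM in GSK3326595. Here vehicle replicate 3 and GSK3326595 replicate 3 were alike and GSK3326595 replicate 2 was 8.36-fold over the next library (log2 difference 3.04 ± 1.57, edgeR adjusted p = 0.601). Ugt1a1 and Ugt1a9 were singled out after their values were seen.

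Ugt1a5 had 9.56, 8.16 and 10.4 CPM in vehicle and 17.1, 22.2 and 10.1 CPM in GSK3326595. Only GSK3326595 replicate 3 overlapped vehicle, and the log2 difference was 0.82 ± 0.32 (edgeR unadjusted p = 0.0405, adjusted p = 0.526). It was 0.58 ± 0.29 without GSK3326595 replicate 2 (edgeR unadjusted p = 0.0915). Ugt1a6b, a phenol enzyme, had the highest mean per kb of the UGT1 members, though Ugt1a1 was above it in vehicle replicates 1 and 2 and, with Ugt1a9, in GSK3326595 replicate 2. It had 45.8, 45.1 and 51.1 CPM in vehicle against 65.1, 73.7 and 33.2 CPM in GSK3326595 (0.28 ± 0.30, edgeR adjusted p = 0.829; 0.10 ± 0.29 without GSK3326595 replicate 2). Its neighbour Ugt1a6a had 54.8, 60.0 and 63.3 CPM against 97.0, 93.2 and 44.6 CPM. Both had GSK3326595 replicates 1 and 2 above all vehicle libraries and replicate 3 below them. Summed over the 9 genes of the locus found in the table, which does not depend on the split of reads, the level was 183 ± 22.8 CPM in vehicle against 262 ± 162 CPM in GSK3326595 (mean ± SD over 3 libraries each), with GSK3326595 replicate 3 lowest at 126 and replicate 2 highest at 442 CPM.

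The UGT2 enzymes conjugate steroids, bile acids and drugs, and their genes lie in a cluster on chromosome 5 (mm10, 86889767 to 87424203). All 6 tested UGT2 members had positive log2 differences, from 0.74 to 3.72 with a median of 3.18, and 1 had an edgeR unadjusted p under 0.05. Without GSK3326595 replicate 2 the median was 0.66, 5 of 6 stayed positive, and 0 had an unadjusted p under 0.05 in either direction by edgeR. DESeq2 called 0 of them in either set of libraries. Ugt2b5 (87124960 to 87140318, minus strand) had 5.64, 2.89 and 16.8 CPM in vehicle and 6.64, 197 and 20.5 CPM in GSK3326595. Apart from GSK3326595 replicate 2, which was 9.58-fold over the next library, the groups overlapped. Its log2 difference was 3.14 ± 1.32 (edgeR unadjusted p = 0.0498, adjusted p = 0.539), and 0.75 ± 0.82 without that library (edgeR unadjusted p = 0.398). It shares 34.8% of its 50-base stretches with Ugt2b38, so reads may be split between them.

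Ugt2b34, at the end of the cluster (86889767 to 86906937, minus strand), ran unlike its neighbours. It had 110, 96.7 and 188 CPM in vehicle and 222, 278 and 158 CPM in GSK3326595. GSK3326595 replicate 2 was only 1.76 times the median of the other 5 libraries, and the log2 difference was 0.74 ± 0.33 with all libraries (edgeR adjusted p = 0.552) and 0.57 ± 0.33 without that library. The same ratio, of GSK3326595 replicate 2 to the median of the others, was 52.6 for Ugt2b1, 17.9 for Ugt2b35, 64.2 for Ugt2b36, 29.6 for Ugt2b5 and 42.5 for Ugt2a3, in their order on the chromosome. Past the UGT2 genes in the same direction lie 2 sulfotransferases, where it was 4.81 for Sult1b1 and 1.09 for Sult1d1. The first genes of the cluster, Ugt2b34 and Ugt2b1, with ratios of 1.76 and 52.6, lie 26.9 kb apart by their lower coordinates.

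**Figure D3:**
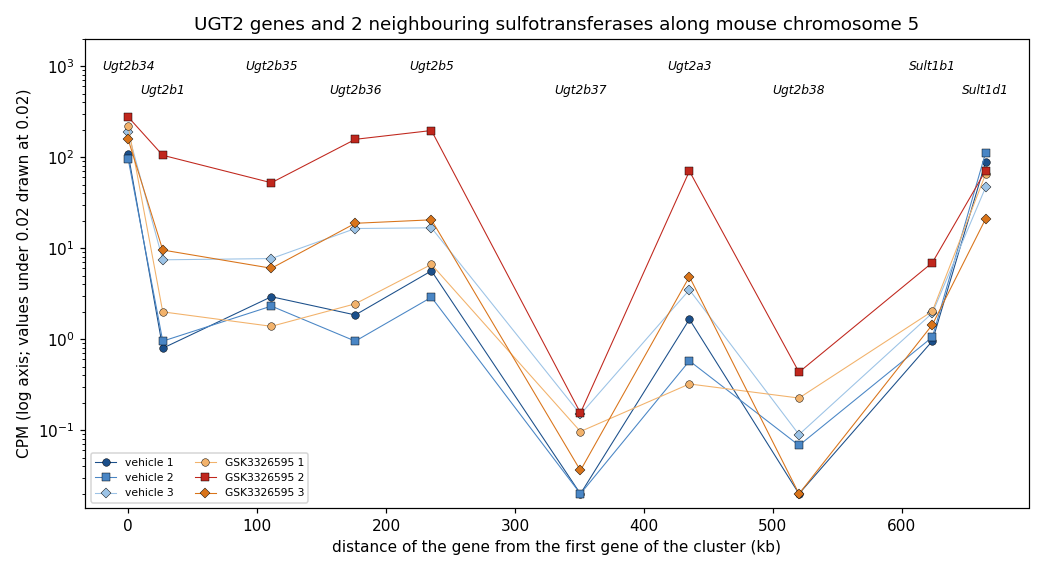
CPM on a log axis against the distance from Ugt2b34 for the 8 UGT2 genes and Sult1b1 and Sult1d1, 1 line per library, with values under 0.02 drawn at 0.02. GSK3326595 replicate 2 lies far above the others from Ugt2b1 to Ugt2a3, except at Ugt2b37, just above them at Ugt2b34 and among them at Sult1d1.

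The UGT3 enzymes use other sugars than glucuronic acid. Ugt3a1 (chromosome 15, 9276888 to 9315032, plus strand) had 0.127, 0.136 and 2.03 CPM in vehicle and 3.87, 24.4 and 2.49 CPM in GSK3326595, with only 4 counts in each of vehicle replicates 1 and 2. Every GSK3326595 library was above every vehicle library, though GSK3326595 replicate 3 lay close to vehicle replicate 3. The log2 difference was 3.73 ± 1.38 (edgeR unadjusted p = 0.0317, adjusted p = 0.522; DESeq2 adjusted p = 0.0443). Without GSK3326595 replicate 2 it was 2.08 ± 1.15 (edgeR unadjusted p = 0.122; DESeq2 adjusted p = 0.474). Omitting vehicle replicate 1 or 2 gave an edgeR unadjusted p of 0.076 or 0.0752. Over all single omissions the log2 difference ran from 2.08 to 6.26, the highest with vehicle replicate 3 left out. Ugt3a2, beside it on the chromosome and the more abundant of both, had 0.350, 0.204 and 6.95 CPM in vehicle and 2.06, 68.4 and 7.47 CPM in GSK3326595. Vehicle replicate 3 was above GSK3326595 replicate 1, so the groups overlapped (3.37 ± 1.71, edgeR adjusted p = 0.594; 0.99 ± 1.45 without GSK3326595 replicate 2).

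Among the GSTs the theta class had lower values in GSK3326595. All 3 members had negative log2 differences, 2 with an edgeR unadjusted p under 0.05, and all 3 without GSK3326595 replicate 2. The genes lie side by side on chromosome 10 (mm10, minus strand). Gstt1 (75783813 to 75798584), which conjugates small halogenated compounds, had 223, 196 and 108 CPM in vehicle and 80.8, 66.9 and 65.9 CPM in GSK3326595, or 175 ± 60.1 against 71.2 ± 8.36 CPM (mean ± SD over 3 libraries each). The lowest vehicle library was above the highest GSK3326595 library, and GSK3326595 replicate 2 did not stand out. The log2 difference was -1.30 ± 0.29 (edgeR unadjusted p = 0.00315, adjusted p = 0.455; DESeq2 adjusted p = 0.0186). It ran from -1.52 to -1.10 over the single omissions, with an edgeR unadjusted p of at most 0.0139, while DESeq2 without GSK3326595 replicate 2 gave an adjusted p of 0.0646.

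Gstt2 (75831114 to 75837424) had 41.1, 55.5 and 19.3 CPM in vehicle and 16.2, 17.98 and 6.46 CPM in GSK3326595. The groups did not overlap, though vehicle replicate 3 and GSK3326595 replicate 2 nearly met. Its log2 difference was -1.51 ± 0.51 (edgeR unadjusted p = 0.022, adjusted p = 0.522), and leaving out vehicle replicate 1 or vehicle replicate 2 gave an edgeR unadjusted p of 0.0508 or 0.0731. Their neighbour Gstt3 had 26.5, 24.0 and 16.7 CPM in vehicle against 14.7, 23.0 and 10.8 CPM in GSK3326595 (-0.47 ± 0.33, edgeR adjusted p = 0.707). Gstt1 and Gstt2 share 0.0% and 0.377% of their 50-base stretches with other genes. The summed theta level was 290.3, 275 and 144 CPM in vehicle and 112, 108 and 83.2 CPM in GSK3326595. In vehicle replicate 3, which had the lowest theta level of its group, periportal hepatocyte genes also had their lowest sum of the group, 2652 CPM against 8656 and 10483 CPM. In GSK3326595 that sum was 1986, 6332 and 1222 CPM, and the part of this list in the theta values was not tested.

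**Figure D4:**
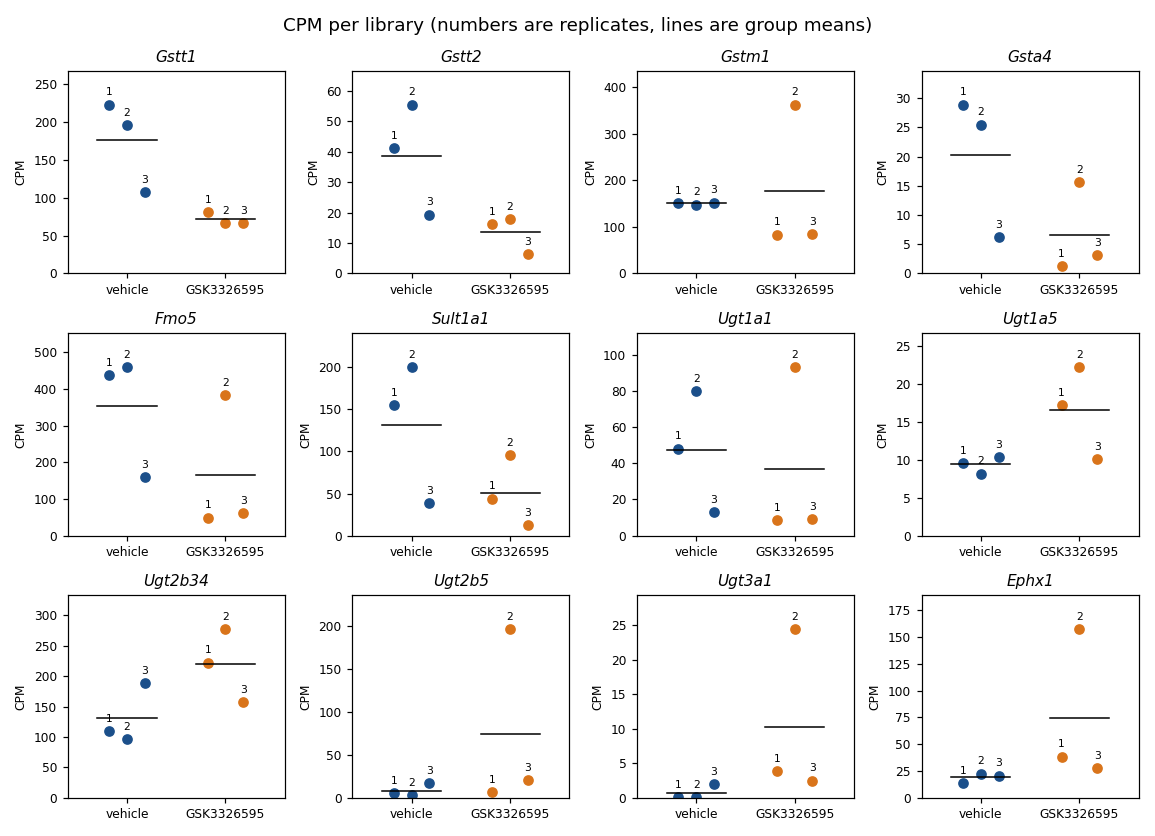
CPM in each library for 12 members, with replicate numbers beside the points and lines at group means. In Gstt1, Gstt2, Ugt3a1 and Ephx1 the groups do not overlap, while in Gstm1, Gsta4, Fmo5 and Ugt1a1 GSK3326595 replicate 2 lies apart from replicates 1 and 3.

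The mu class, a cluster on chromosome 3, was led by Gstm1 (108012255 to 108017973, minus strand), an abundant liver GST. It had 151, 148 and 152 CPM in vehicle and 83.6, 362 and 84.3 CPM in GSK3326595. The vehicle libraries were nearly equal, 2 GSK3326595 libraries lay below them and replicate 2 far above. The log2 difference was therefore 0.23 ± 0.58 (edgeR adjusted p = 0.947). Without GSK3326595 replicate 2 it was -0.79 ± 0.15 (edgeR unadjusted p = 0.00213, edgeR adjusted p = 0.459, DESeq2 adjusted p = 0.00584). That change of sign was shared: 5 of 7 mu members had positive log2 differences with all libraries, and 0 of 7 without that library, when 2 had lower values at an edgeR unadjusted p under 0.05 (Gstm1 and Gstm7). Gstm6, a member of low level, was 12.5 CPM in GSK3326595 replicate 2 and 0.516 to 1.88 CPM elsewhere. In Gstm5 and Gstm7 GSK3326595 replicate 2 was not the highest library. Gstm5 had 20.1, 17.3 and 18.4 CPM in vehicle and 9.83, 10.05 and 20.3 CPM in GSK3326595, while Gstm7 had 15.7, 15.5 and 5.55 CPM against 5.48, 14.3 and 1.84 CPM.

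In the alpha class, Gsta3, known for conjugating aflatoxin epoxide, had 127, 113 and 105 CPM in vehicle and 90.3, 456 and 50.4 CPM in GSK3326595. Its log2 difference was 0.79 ± 0.76 (edgeR adjusted p = 0.799), and -0.67 ± 0.27 without GSK3326595 replicate 2 (edgeR unadjusted p = 0.049). Gsta4, which clears the lipid peroxidation product hydroxynonenal, had 28.9, 25.5 and 6.21 CPM in vehicle and 1.29, 15.6 and 3.10 CPM in GSK3326595. Vehicle replicate 3 was below GSK3326595 replicate 2, and GSK3326595 replicates 1 and 3 were below all vehicle libraries. The log2 difference was -1.60 ± 0.97 (edgeR adjusted p = 0.657). Without GSK3326595 replicate 2 it was -3.14 ± 0.82 (edgeR unadjusted p = 0.00889, edgeR adjusted p = 0.459, DESeq2 adjusted p = 0.000705). Gsta4 was singled out after its values were seen. Gsta1 and Gsta2 share 90.5% and 49.8% of their 50-base stretches with other genes and their values are uncertain, at 0.340 to 1.58 and 2.53 to 21.1 CPM.

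In the pi class Gstp1, known as a marker of early liver lesions in the rat, had 289, 264 and 371 CPM in vehicle and 422, 347 and 331 CPM in GSK3326595. The groups overlapped, and GSK3326595 replicate 2 lay between the others (0.25 ± 0.20, edgeR adjusted p = 0.747; 0.34 ± 0.22 without it). It shares 33.7% of its 50-base stretches with Gstp2, which was at 0.289 to 1.67 CPM, highest in GSK3326595 replicate 2 (log2 difference 0.31 ± 0.73, edgeR adjusted p = 0.945; -0.65 ± 0.64 without it). The summed pair was 309 ± 55.6 against 367 ± 48.5 CPM (mean ± SD over 3 libraries each).

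Of the other GSTs, Mgst1 had 188, 156 and 229 CPM in vehicle and 203, 811 and 156 CPM in GSK3326595. GSK3326595 replicate 2 was 3.54-fold over the next library and the other 5 overlapped (1.03 ± 0.62, edgeR adjusted p = 0.655; -0.04 ± 0.22 without it). Gstk1, a GST of mitochondria and peroxisomes, went further, with 11.5, 9.39 and 5.58 CPM in vehicle and 1.87, 48.0 and 4.33 CPM in GSK3326595. Its log2 difference was 1.03 ± 1.11 with all libraries and -1.45 ± 0.51 without GSK3326595 replicate 2 (edgeR unadjusted p = 0.031). Gsto1, a thiol transferase, had 66.2 to 79.3 CPM in vehicle and 49.4 to 68.7 CPM in GSK3326595 (-0.42 ± 0.19, edgeR adjusted p = 0.556; -0.54 ± 0.17 without GSK3326595 replicate 2, edgeR unadjusted p = 0.0189). Gstz1, which also acts in tyrosine breakdown, had 205 to 248 CPM in vehicle and 106 to 274 CPM in GSK3326595. Gstk1, Gsto1 and Gstz1 were chosen after their values were seen, to complete the class.

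Of the sulfotransferases, Sult1a1, a phenol enzyme and the most abundant of them, had 155, 201 and 38.2 CPM in vehicle and 44.0, 95.7 and 12.8 CPM in GSK3326595. Vehicle replicate 3 was among the GSK3326595 values, and the log2 difference was -1.37 ± 0.82 (edgeR adjusted p = 0.651), or -2.18 ± 0.85 without GSK3326595 replicate 2 (edgeR unadjusted p = 0.0434). Sult1d1, a catecholamine enzyme, had 89.0, 112 and 46.8 CPM against 65.3, 71.3 and 21.03 CPM, and likewise overlapped. Sult1c2 ran quite otherwise, with 1.98, 0.680 and 0.776 CPM in vehicle and 1.48, 46.6 and 0.938 CPM in GSK3326595. Its log2 difference of 3.83 ± 1.55 (edgeR unadjusted p = 0.0445, adjusted p = 0.533) came from 1 library 23.6-fold over the next, and was 0.13 ± 0.58 without it. Sult2a8, a liver enzyme that sulfates bile acids, had 0.924, 0.306 and 5.07 CPM in vehicle and 1.32, 106 and 6.96 CPM in GSK3326595 (4.17 ± 1.75, edgeR adjusted p = 0.54; 1.04 without GSK3326595 replicate 2). Sult1b1 and Sult5a1 reached at most 6.95 and 1.97 CPM.

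Among the remaining 6 enzymes, Ephx1 (chromosome 1, 180976210 to 181020904, minus strand), the microsomal epoxide hydrolase, had higher values in every GSK3326595 library. It had 14.1, 22.6 and 20.8 CPM in vehicle and 38.4, 158 and 27.6 CPM in GSK3326595, or 19.1 ± 4.49 against 74.5 ± 72.1 CPM (mean ± SD over 3 libraries each). The log2 difference was 1.96 ± 0.67 (edgeR unadjusted p = 0.0233, adjusted p = 0.522; DESeq2 adjusted p = 0.0833). It was 0.83 ± 0.27 without GSK3326595 replicate 2 (edgeR unadjusted p = 0.024), so that library moved its size more than its sign. The edgeR unadjusted p was 0.0714 without vehicle replicate 1.

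Aox3, the main aldehyde oxidase of mouse liver, had 4.40, 4.56 and 6.68 CPM in vehicle and 3.09, 212 and 11.4 CPM in GSK3326595. This gave a log2 difference of 3.86 ± 1.47 (edgeR unadjusted p = 0.0357, adjusted p = 0.524) and 0.53 ± 0.57 without GSK3326595 replicate 2 (edgeR unadjusted p = 0.388). Its neighbour Aox1 had the same shape at 4.17 to 6.31 CPM in 5 libraries and 60.1 CPM in GSK3326595 replicate 2. Fmo5, a flavin monooxygenase, was the most abundant of these 6 per kb in the mean over all libraries, but Ephx1 was above it in each GSK3326595 library (19.7, 80.8 and 14.2 against 8.68, 67.7 and 10.9 CPM per kb). Fmo5 had 437, 460 and 161 CPM in vehicle and 49.3, 384 and 62.1 CPM in GSK3326595. GSK3326595 replicate 2 lay with vehicle replicates 1 and 2, and the other 2 GSK3326595 libraries lay below all vehicle libraries. Its log2 difference was -1.09 ± 0.85 (edgeR adjusted p = 0.733). Without GSK3326595 replicate 2 it was -2.61 ± 0.52 (edgeR unadjusted p = 0.00252, edgeR adjusted p = 0.459, DESeq2 adjusted p = 2.84e-05). Fmo1, of the same family, had 51.1, 44.4 and 65.5 CPM against 113, 229 and 27.1 CPM, while Tpmt, which methylates thiopurine drugs, was at 9.81 to 21.1 CPM with overlapping groups.

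**Figure D5:**
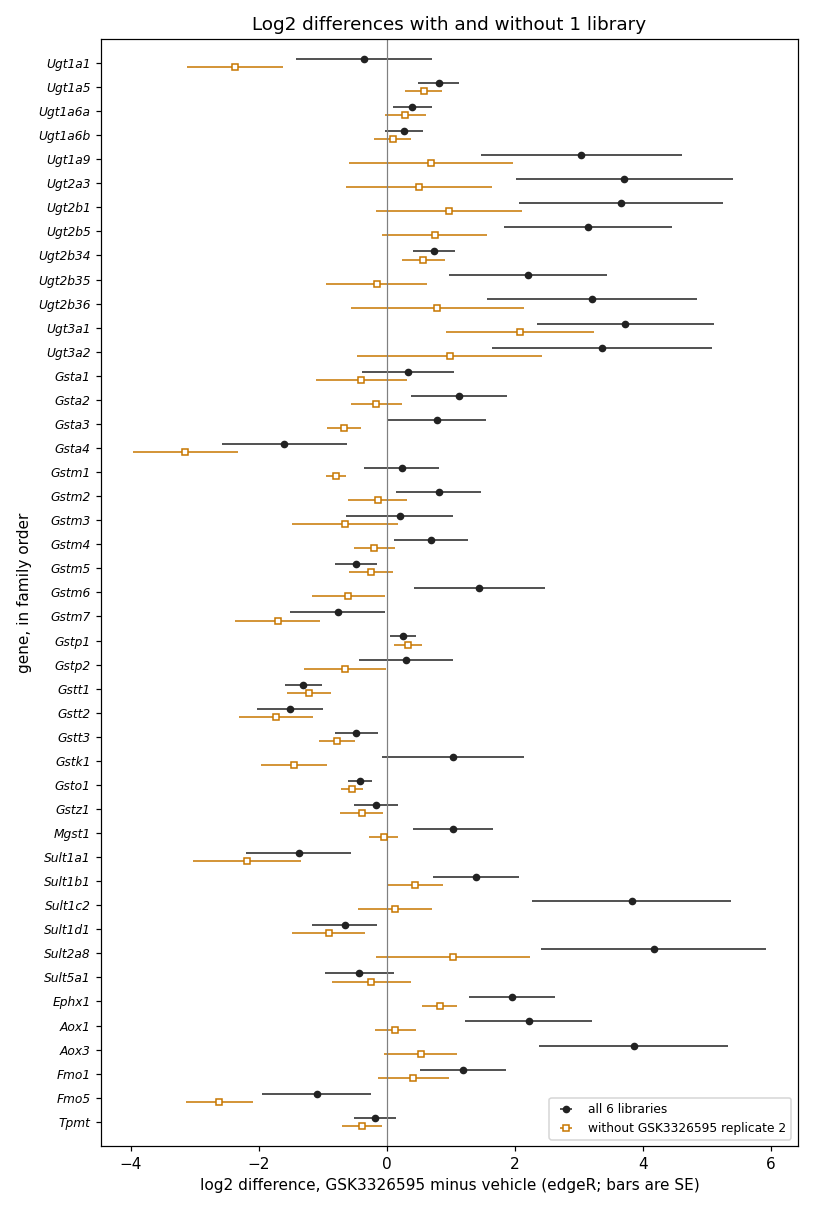
Log2 difference between GSK3326595 and vehicle for the 45 tested members, with all 6 libraries (filled circles) and without GSK3326595 replicate 2 (open squares); bars are SE and positive values are higher in GSK3326595. The open squares of the theta genes stay near the circles, while those of the UGT2 genes, Sult1c2 and Aox3 move toward 0 and those of Gstm1 and Gstk1 cross it.

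The genes that steer, feed and clear for these enzymes were read from the same fit. The counts of these and the later gene lists stand beside all genes tested. Of those, 5.45% had higher and 3.81% had lower values at an edgeR unadjusted p under 0.05. Without GSK3326595 replicate 2 these shares were 5.59% and 4.46%. Of 15 xenobiotic sensors and liver regulators tested, 0 had higher and 1 had lower values at an edgeR unadjusted p under 0.05 (median log2 difference -0.14). These were 0 and 3 without GSK3326595 replicate 2 (Cux2, Nr1i2 and Esrra). With all libraries the 1 was Cux2, a repressor with female-biased expression in liver, at 64.8, 72.0 and 24.8 CPM in vehicle and 21.4, 2.08 and 14.6 CPM in GSK3326595 (-2.08 ± 0.81, edgeR adjusted p = 0.524; -1.53 ± 0.50 without GSK3326595 replicate 2). Hnf4a was at 412 to 541 CPM and Ahr at 18.5 to 28.6 CPM in all libraries. CAR (Nr1i3) had 31.5, 53.9 and 11.7 CPM in vehicle and 14.2, 89.6 and 5.95 CPM in GSK3326595. It was highest in GSK3326595 replicate 2 and then in vehicle replicates 2 and 1, as was Ugt1a1, a pair picked after the values were seen. Nr1i2 was also highest in GSK3326595 replicate 2, at 81.1 CPM, with 72.3 and 72.1 CPM in vehicle replicates 1 and 2. The part of either gene in the Ugt1a1 values was not tested.

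Of 17 genes that supply cofactors (sugar nucleotides, activated sulfate, glutathione), 0 had an edgeR unadjusted p under 0.05 in either direction, DESeq2 called 0, and the median log2 difference was 0.08. Only Ugdh had such a p, with lower values, without GSK3326595 replicate 2. This enzyme, which makes UDP-glucuronic acid, had 131, 126 and 78.5 CPM in vehicle and 55.0, 154 and 66.3 CPM in GSK3326595 (-0.28 ± 0.43, edgeR adjusted p = 0.893; -0.83 ± 0.28 without GSK3326595 replicate 2, edgeR unadjusted p = 0.0256). Gclc, the limiting enzyme of glutathione synthesis, had 45.9, 41.3 and 57.0 CPM against 45.5, 149 and 75.6 CPM (0.90 ± 0.42, edgeR adjusted p = 0.56). GSK3326595 replicate 2 was highest for 11 of these 17.

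Of 17 uptake and export transporters, 4 had higher values (Slc22a7, Abcc3, Slco1b2 and Abcg2) and 1 lower (Abcb1a) at an edgeR unadjusted p under 0.05. When GSK3326595 replicate 2 was left out, 1 had higher values (Slc22a7) and 3 lower (Abcb1a, Abcb4 and Abcb11). Abcc3, which exports glucuronides into blood, had 29.4, 46.4 and 58.9 CPM in vehicle and 112, 147 and 54.5 CPM in GSK3326595 (1.22 ± 0.41, edgeR adjusted p = 0.522; 0.93 ± 0.40 without GSK3326595 replicate 2). Slco1b2, an uptake carrier, followed the UGT2 pattern, with 18.6, 11.5 and 46.0 CPM against 41.9, 574 and 41.3 CPM. Abcb1a, a drug exporter, had 163, 154 and 24.9 CPM in vehicle and 5.77, 38.5 and 3.36 CPM in GSK3326595 (-2.84 ± 1.10, edgeR adjusted p = 0.524; -4.60 ± 0.94 without GSK3326595 replicate 2). Vehicle replicate 3 was again nearer to the GSK3326595 libraries than to the other vehicle libraries.

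Of 24 tested genes among other conjugating and related enzymes, 3 had higher and 0 lower values at an edgeR unadjusted p under 0.05 (median log2 difference 0.61). Without GSK3326595 replicate 2, 1 had higher and 3 had lower values at such a p, and the median was 0.16. Ugt1a10, of the same locus as the UGT1 members, had 0.573, 0.340 and 0.865 CPM in vehicle and 3.42, 1.05 and 2.31 CPM in GSK3326595 (1.92 ± 0.56, edgeR adjusted p = 0.491; 2.30 ± 0.47 without GSK3326595 replicate 2). It was highest in GSK3326595 replicate 1, and GSK3326595 replicate 2 was the lowest of its group. Inmt, a methyltransferase, had 1.63 to 4.80 CPM in vehicle and 1.81, 89.8 and 6.999 CPM in GSK3326595.

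Beside the members high in GSK3326595 replicate 2, the summed levels of male-biased and pericentral gene groups were also far higher there than in any other library. The periportal sum there, 6332 CPM, was below the 8656 and 10483 CPM of vehicle replicates 1 and 2. Male-biased liver genes, of which 6 of 15 tested had higher values at an edgeR unadjusted p under 0.05, summed to 201, 205 and 289 CPM in vehicle and 221, 2563 and 248 CPM in GSK3326595. Without GSK3326595 replicate 2, 1 of them had such a p, and the median log2 difference went from 2.10 to 0.84. Female-biased genes, of which 0 of 11 had higher and 1 had lower values by edgeR, summed to 142, 137 and 63.3 CPM against 77.7, 162 and 39.2 CPM. That sum was highest in GSK3326595 replicate 2, where 5 of the 11 genes were highest. Without that library their median log2 difference went from 0.33 to -0.56. Pericentral genes summed to 330.3, 334 and 608 CPM in vehicle and 642, 2893 and 472 CPM in GSK3326595. Cyp2e1, a pericentral P450, had 5.96, 4.05 and 212 CPM in vehicle and 8.80, 1910 and 125 CPM in GSK3326595. This 1 gene thus made up most of the pericentral sum in GSK3326595 replicate 2, where 9 of the 10 tested pericentral genes were highest. Vehicle replicate 3 and GSK3326595 replicate 3 came next after GSK3326595 replicate 2 for Cyp2e1, and both were above the remaining 3 libraries for Ugt1a9, Ugt2b1, Ugt2b5, Ugt2b36, Ugt3a2 and Sult2a8. The part of these gene groups in the members' values was not tested.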

How the data were processed

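Per the labels' protocols, total RNA of the tumors was made into stranded libraries. The authors deposited expected counts of each gene; the submitters' processing notes name cutadapt, STAR, Picard, RSEM and mm10. Versions and the annotation release are not given in the sources used here. Expected counts were rounded, as 12.3% of the deposited values were not whole (tolerance 0). Genes were filtered (filterByExpr, minimum count 10), scaled by TMM and tested two-sided by quasi-likelihood in edgeR 4.0.16 (R 4.3.3) over all 17012 genes kept, adjusted by Benjamini-Hochberg with threshold 0.05. The SE is the log2 difference over the root of F. Alternatives were limma-voom (limma 3.58.1), DESeq2 1.42.0, other scaling and filters, each library left out in turn, and a replicate block. On simulated counts with known changes, DESeq2 called many more unchanged genes than edgeR or limma-voom did. The DESeq2 adjusted p-values given here may therefore be too small. Library totals were 25814339 to 33621083, and intervals from counts cover counting error only. Coordinates come from GENCODE M21 (1-based; 47224 table IDs found) and promoter sequences from RefSeq, GRCm38.p6. The members and gene lists were chosen with earlier results of these data known. Members with an edgeR unadjusted p under 0.05, with groups that do not overlap, or with the highest level per kb of their family were named by rule; neighbours of these may be named too, and all other genes named were chosen after their values were seen.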

Additional observations from a re-analysis of the deposited data

How the results depend on the processing

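With DESeq2, 202 genes were higher and 111 lower after adjustment where edgeR called 0, and 138 and 207 without GSK3326595 replicate 2, a fit chosen after seeing the data. The count of members with higher values at an unadjusted p under 0.05, 6 by edgeR, was 11 with DESeq2, 1 with limma-voom, 14 with no filter on low counts, 1 with the replicate block and 1 with DESeq2 without GSK3326595 replicate 2; leaving out each library gave 0 to 15. The count with lower values, 2 by edgeR, was 6 with the replicate block, 12 with DESeq2 without GSK3326595 replicate 2, and 1 to 12 when leaving out each library. For these counts the share of all genes was read only from edgeR with all libraries and without GSK3326595 replicate 2. The members' median log2 difference of 0.74 ranged from -0.16 to 1.07 over the omitted libraries and was -0.18 with DESeq2 without GSK3326595 replicate 2. Correlations of same-numbered deviations from the group means were -0.07, 0.07 and 0.32, and those of unlike numbers ran from -0.43 to 0.32. Deviations within a group of 3 depend on each other, so these correlations cannot show or exclude pairing. The labels name no pairs, so the block is given only here. Of 17 members named by rule, 14 kept their direction under all 15 alternatives. The others changed sign: Gsta3 ranged from -0.67 to 1.26 over omitted libraries (-0.69 with DESeq2 without GSK3326595 replicate 2), Mgst1 from -0.042 to 1.43 (-0.066), and Gstm1 from -0.79 to 0.59 (-0.82), with -0.13 under limma-voom and -0.16 under the replicate block. Without GSK3326595 replicate 2 fewer samples enter the fit; the cause of the other shifts was not tested. Ugt2b37 and Ugt2b38 were too shallow to test.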
